A study of Mus musculus and Macaca mulatta with 39 samples.

Results

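Neurog2 and Neurog1 encode neurogenins, proneural transcription factors of the basic helix-loop-helix family, and the regions called for histone marks around both genes in developing mouse cortex are described here. The members are the regions that touch a window of 55000 bp around Neurog2 (mm9 chr3:127310000-127365000) or a window of 45000 bp around Neurog1 (mm9 chr13:56330000-56375000). They number 130 of the 921935 regions in the 16 mouse lists, with 80 in the Neurog2 window (39 for H3K27ac and 41 for H3K4me2) and 50 in the Neurog1 window (24 for H3K27ac and 26 for H3K4me2).

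The lists come from chromatin immunoprecipitation followed by sequencing (ChIP-seq) on cortex of C57BL6J mouse embryos, with no other allele and no agent named in the labels. Tissue was taken at embryonic day 11.5 (E11.5) and E14.5 from cortex, and at E17.5 from frontal cortex and from occipital cortex separately, with 2 biological replicates per tissue per the series' design text. The acetylation H3K27ac marks regulatory elements that are in use, and the dimethylation H3K4me2 marks promoters and enhancers in use or not. Each list holds the positions of the regions called in 1 sample, without read counts or scores, so the values below are lengths of called sequence and the depth is unknown. The samples are pieces of tissue, so a shorter call in fewer cells and a weaker mark per cell cannot be told apart.

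Proneural factors bind DNA at E-box motifs together with E proteins and turn progenitors towards neuronal fate. They raise Delta ligands, which activate Notch in neighbouring progenitors, and Notch in turn holds proneural genes down through Hes repressors. In the cortex, Neurog2 is the main proneural gene of glutamatergic neurons, and Neurog1 acts beside it in early progenitors of the dorsal telencephalon.

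The 250 bases before each annotated start are shown because the promoters are where Notch effectors and other factors could act on these genes. They are RefSeq sequences on GRCm38.p6, which is not the build of the region lists, so they were not placed in the windows. The Neurog2 stretch is chr3:127632886-127633135 on the plus strand, between Zgrf1 and Alpk1, and the Neurog1 stretch is chr13:56252181-56252430 on the minus strand, between Tifab and Cxcl14. Both run 5′ to 3′ towards the start, and capitals mark every match to the motifs searched.
Neurog2: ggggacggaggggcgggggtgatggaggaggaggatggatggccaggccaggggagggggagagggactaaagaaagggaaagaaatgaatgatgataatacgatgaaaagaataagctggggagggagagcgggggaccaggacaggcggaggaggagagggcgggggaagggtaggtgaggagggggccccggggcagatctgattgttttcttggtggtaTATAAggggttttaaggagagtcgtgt
Neurog1: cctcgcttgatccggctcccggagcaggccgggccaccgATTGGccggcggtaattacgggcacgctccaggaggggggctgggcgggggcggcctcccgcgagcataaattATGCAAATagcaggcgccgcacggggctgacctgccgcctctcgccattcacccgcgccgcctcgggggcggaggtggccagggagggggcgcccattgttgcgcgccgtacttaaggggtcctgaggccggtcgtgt

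The motifs, searched on both strands, were the general E-box CANNTG, the E-box CACGTG that it contains, the N-box CACNAG bound by Hes repressors, TGGGAA of the Notch effector Rbpj, the CCAAT box, TATAA, and the octamer ATGCAAAT bound by POU factors. The Neurog2 stretch held TATAA once, 27 to 23 bases before the start, and no other motif. The Neurog1 stretch held the CCAAT box once on the strand opposite to the one printed (read as ATTGG, 211 to 207 bases before the start). It held ATGCAAAT once on the printed strand (138 to 131 bases before the start). Among 32851 mouse promoters of the same length, TATAA occurred in 22.8%, CCAAT in 33.8% and ATGCAAAT in 1.60%. CANNTG occurred in 66.2% of them, CACNAG in 36.7%, TGGGAA in 21.6% and CACGTG in 6.02%, and neither stretch held any of these. The GC content was 58% for Neurog2 and 71.2% for Neurog1, against a median of 52.4% over all promoters.

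The Neurog2 window was densely marked in all 16 lists. H3K27ac regions covered 15425 and 8675 bp of it at E11.5, 31575 and 24425 bp at E14.5, 9599 and 16700 bp in frontal cortex at E17.5, and 17525 and 9725 bp in occipital cortex at E17.5 (replicates 1 and 2 of each). Both E14.5 lists were above all 6 other lists, and the E11.5 and E17.5 lists overlapped each other. At E11.5 the mean was 12050 ± 4773 bp, with 28000 ± 5056 bp at E14.5 and 13387 ± 4315 bp at E17.5 (SD, n = 2, 2 and 4). The exact permutation test of the 3 stages over 420 assignments of the lists gave p = 0.0333, or 0.0714 after Benjamini-Hochberg adjustment over 6 such tests, which does not pass 0.05. In all stage tests the frontal and occipital lists count together as 4 lists at E17.5, although they are separate tissues.

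**Figure D1:**
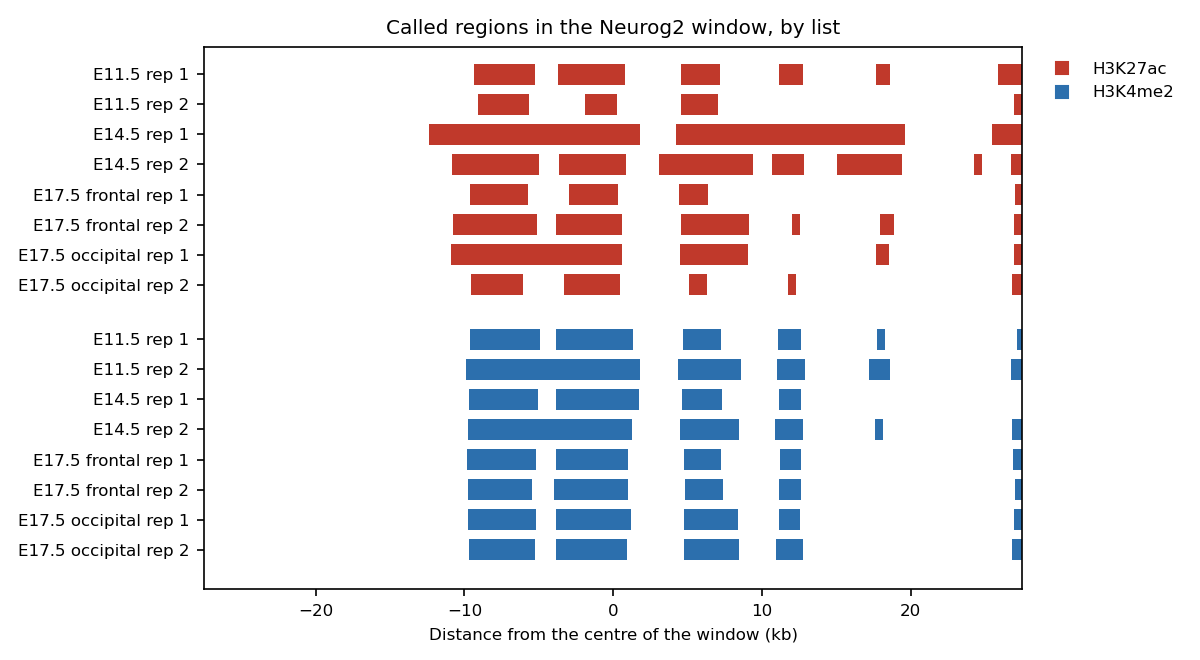
Regions called in the Neurog2 window in each of the 16 lists, by distance from the centre of the window in kb (x axis), with H3K27ac lists above and H3K4me2 lists below, each ordered by stage. H3K27ac regions were longest in both E14.5 lists, at 31575 and 24425 bp in all, while H3K4me2 regions stood at nearly the same places in all 8 lists.

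H3K4me2 in the same window varied less. It covered 14850 and 19950 bp at E11.5, 14374 and 18050 bp at E14.5, 14050 and 13775 bp in frontal cortex at E17.5, and 15325 and 15500 bp in occipital cortex at E17.5. The stages overlapped, and replicate 2 was the longer list at E11.5 and at E14.5. The exact permutation test of the stages gave p = 0.324 (adjusted p = 0.324). H3K4me2 means were 17400 ± 3606 bp for E11.5, 16212 ± 2599 bp for E14.5 and 14662.5 ± 876 bp for E17.5 (SD, n = 2, 2 and 4).

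The Neurog1 window held less of both marks. H3K27ac covered 5125 and 4250 bp at E11.5, 12425 and 5725 bp at E14.5, 5426 and 1425 bp in frontal cortex at E17.5, and 2250 and 2775 bp in occipital cortex at E17.5. Both E14.5 lists were above all 6 others, although the second exceeded the highest E17.5 list by little, and the E11.5 and E17.5 lists overlapped. The exact permutation test of the stages gave p = 0.0381 (adjusted p = 0.0714). Means were 4687.5 ± 619 bp for E11.5, 9075 ± 4738 bp for E14.5 and 2969 ± 1730 bp for E17.5 (SD, n = 2, 2 and 4).

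H3K4me2 in the Neurog1 window was longest at the first stage. It covered 8325 and 11750 bp at E11.5, 4900 and 7550 bp at E14.5, 5500 and 3975 bp in frontal cortex at E17.5, and 5025 and 6875 bp in occipital cortex at E17.5. Both E11.5 lists were above all later lists, and the E14.5 and E17.5 lists overlapped. The exact permutation test of the stages gave p = 0.0476 (adjusted p = 0.0714), with means of 10037.5 ± 2422 bp for E11.5, 6225 ± 1874 bp for E14.5 and 5343.75 ± 1203 bp for E17.5 (SD, n = 2, 2 and 4).

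**Figure D2:**
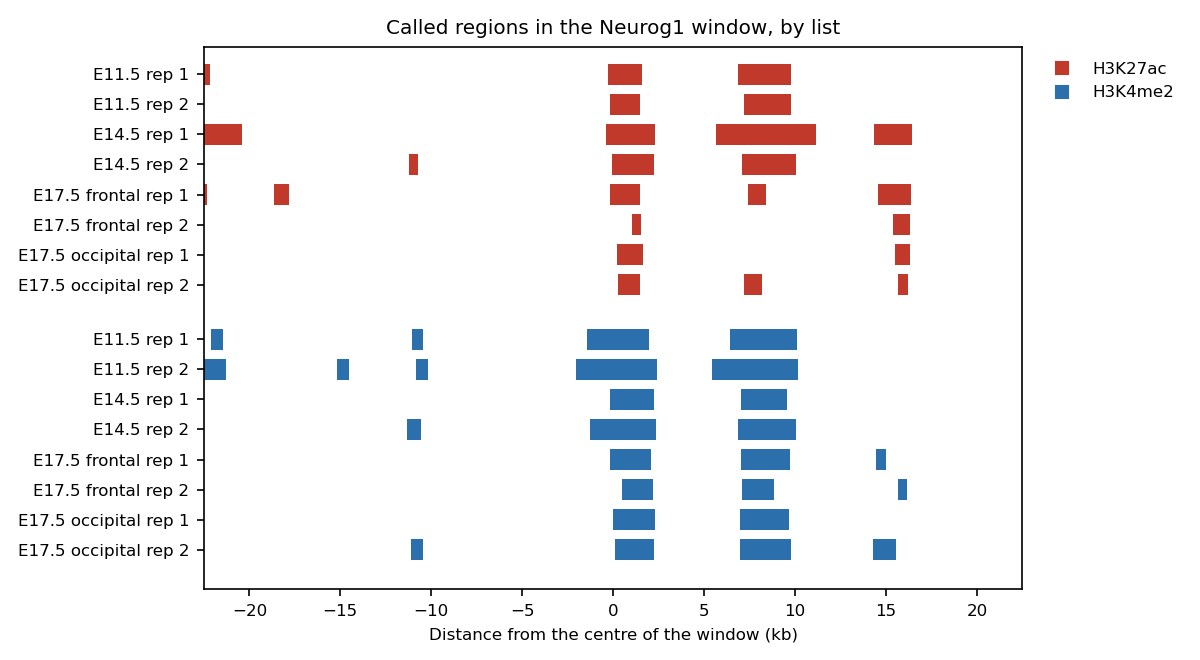
Regions called in the Neurog1 window in each of the 16 lists, by distance from the centre of the window in kb (x axis), with H3K27ac lists above and H3K4me2 lists below, each ordered by stage. Most lists held a region near the centre and another about 8.45 kb to its right, and the right one was short or missing for H3K27ac at E17.5.

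The lists differed in total length. H3K27ac lists covered 85.3 and 63.1 Mb of the genome at E11.5, 144 and 107 Mb at E14.5, and 129 to 169 Mb at E17.5, so that both E11.5 lists were the shortest. H3K4me2 lists covered 69.3 and 112 Mb at E11.5, 65.3 and 95.2 Mb at E14.5, and 90.0 to 162 Mb at E17.5, and their stages overlapped. Scaled to these totals, Neurog2 H3K27ac was 181 and 137 bp per Mb of list at E11.5, 219 and 228 bp at E14.5, and 56.7 to 108 bp in the 4 lists at E17.5. On that scale the 3 stages did not overlap, and the exact permutation test gave p = 0.00476 (adjusted p = 0.0143), the smallest p that the design allows. With the 4 tissues kept apart, the exact permutation test of unscaled lengths had an adjusted p of 0.257. Scaled lengths were not tested with the 4 tissues kept apart.

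Neurog1 H3K27ac was 60.1 and 67.3 bp per Mb of list at E11.5, 86.0 and 53.5 bp at E14.5, and 8.89 to 32.0 bp at E17.5. The 4 lists at E17.5 were below all earlier lists, and the E14.5 lists lay on both sides of the E11.5 lists (exact permutation p = 0.0238, adjusted p = 0.0476). With each list left out in turn the adjusted p ranged from 0.0286 to 0.0714, and was 0.05 or more in 6 of 8 cases, with 0.0714 without E17.5 frontal replicate 2 or either occipital list. For Neurog2 H3K27ac it ranged from 0.0286 to 0.0571, and was 0.05 or more in 3 of 8 cases, at 0.05 without E14.5 replicate 2 and 0.0571 without the second frontal or the first occipital list.

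Neurog1 H3K4me2 was 120 and 105 bp per Mb of list at E11.5, 74.99 and 79.3 bp at E14.5, and 42.4 to 52.5 bp at E17.5. The 3 stages did not overlap and stood in decreasing order (exact permutation p = 0.00476, adjusted p = 0.0143), and the adjusted p was 0.0286 with any 1 list left out. Neurog2 H3K4me2 was 214 and 179 bp per Mb of list at E11.5, 220 and 190 bp at E14.5, and 95.6 to 153 bp at E17.5 (exact permutation p = 0.0333, adjusted p = 0.05). Its E17.5 lists were below all earlier lists, and its E11.5 and E14.5 lists overlapped. Whether the difference in list length comes from sequencing depth or from the amount of marked sequence was not tested.

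**Figure D3:**
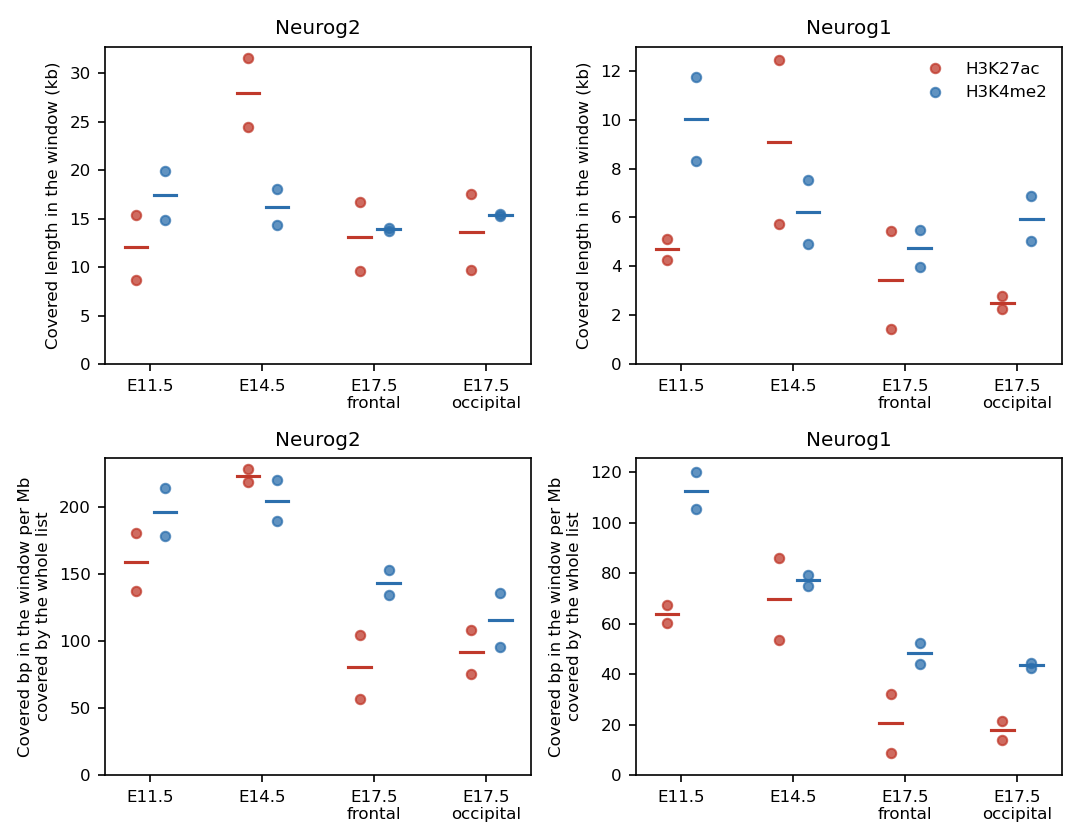
Covered length in kb (upper panels) and covered bp per Mb covered by the whole list (lower panels) in the Neurog2 window (left) and the Neurog1 window (right), with 1 point per list and a bar at the mean of each tissue. The upper panels show the E14.5 lists highest for H3K27ac, and the lower panels show every E17.5 list below every earlier list in all 4 combinations of gene and mark.

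For H3K27ac, frontal and occipital cortex at E17.5 overlapped in both windows. Neurog2 H3K27ac averaged 13149.5 ± 5021 bp in frontal and 13625 ± 5515 bp in occipital cortex (SD, n = 2 each), and the values overlapped. Neurog1 H3K27ac averaged 3425.5 ± 2829 bp in frontal and 2512.5 ± 371 bp in occipital cortex (SD, n = 2 each), and the occipital values fell between the frontal ones. H3K4me2 was shorter in frontal cortex in the Neurog2 window, at 13912.5 ± 194 bp against 15412.5 ± 124 bp in occipital cortex (SD, n = 2 each), with no overlap. Scaled to the list total the order turned, with 144 ± 13.4 bp per Mb of list in frontal and 116 ± 28.5 bp in occipital cortex (SD, n = 2 each), and the lists overlapped. An exact permutation test of 2 lists against 2 cannot go below p = 0.333.

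Neurog2 was the more covered gene in every list. Regions covered 15.8 to 57.4% of its window for H3K27ac, against 3.17 to 27.6% of the Neurog1 window. For H3K4me2 the share was 25.0 to 36.3% in the Neurog2 window and 8.83 to 26.1% in the Neurog1 window. The difference within a list was 19.4 ± 10.8 percentage points for H3K27ac and 13.6 ± 3.01 points for H3K4me2 (SD, n = 8), positive in 8 of 8 lists for both, with an exact sign-flip permutation p of 0.0078 for both (adjusted p = 0.0078). Windows of other placement or width would give other shares.

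The difference between the genes was 11.5 ± 7.30 points at E11.5, 30.7 ± 1.34 points at E14.5 and 17.7 ± 11.01 points at E17.5 for H3K27ac (SD, n = 2, 2 and 4). Its exact permutation test across stages gave p = 0.190 (adjusted p = 0.229), so a different course of the genes was not shown for H3K27ac. For H3K4me2 it was 9.33 ± 1.17 points at E11.5, 15.6 ± 0.562 points at E14.5 and 14.8 ± 1.95 points at E17.5 (exact permutation p = 0.0476, adjusted p = 0.0714).

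Set against the rest of the genome, the Neurog2 window was among the more covered ones. Tiles of the same size, laid along the chromosomes without regard to genes, had on average 2.39 to 6.41% of their length covered by H3K27ac, depending on the list. Of 48025 tiles, 0.527% and 0.648% were covered as much as the Neurog2 window in the E14.5 H3K27ac lists. The share was 1.04 and 1.94% in the E11.5 lists and 3.30 to 10.9% in the E17.5 lists. For H3K4me2 the share of tiles covered as much was 0.408 to 2.84% over all 8 lists. For the Neurog1 window it was 4.09 to 43.8% of 58692 tiles for H3K27ac and 1.74 to 13.8% for H3K4me2, and its highest shares were those of the E17.5 lists.

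Regions recurred at fixed places. Stretches called in at least 5 of the 16 lists, joined where 100 bp or less apart, numbered 6 in the Neurog2 window and 4 in the Neurog1 window. The threshold was chosen after the values were seen, so the stretches are described without a test. No annotation of mm9 was used, so none is assigned to a promoter, an exon, an intron or the other gene nearby.

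In the Neurog2 window, 4 of the 6 stretches were called in all 16 lists. The longest, chr3:127333551-127338775 (5225 bp), had 4500 and 2150 bp of H3K27ac at E11.5, 5225 and 4500 bp at E14.5, and 3275 to 4525 bp in the 4 lists at E17.5, so the stages overlapped. H3K4me2 covered 4800 to 5225 bp of it in every list. The stretch chr3:127327601-127332550 (4950 bp) had 4125 and 3450 bp of H3K27ac at E11.5, 4950 and 4925 bp at E14.5, and 3475 to 4950 bp at E17.5, again with overlap. Inside these 2 stretches lay the longest sequences called for both marks in all 16 lists, chr3:127328401-127331425 (3025 bp) and chr3:127335626-127337775 (2150 bp).

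The other Neurog2 stretches called in all 16 lists were chr3:127341976-127346075 (4100 bp) and chr3:127364276-127365000 (725 bp, cut by the window edge). In the first, H3K27ac was 2575 and 2525 bp at E11.5, 4100 and 4100 bp at E14.5, 1926 and 4025 bp in frontal cortex, and 4100 and 1225 bp in occipital cortex at E17.5, so that E14.5 and E17.5 overlapped. H3K4me2 covered 2525 to 4100 bp of it.

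The 2 remaining Neurog2 stretches were not called in every list. H3K27ac in the stretch chr3:127348526-127350250 (1725 bp) was 1575 and 0 bp at E11.5, 1725 and 1725 bp at E14.5, 0 and 500 bp in frontal cortex at E17.5, and 0 and 550 bp in occipital cortex at E17.5. Both E14.5 lists were fully covered and above every other list, and the E11.5 replicates stood at opposite ends. H3K4me2 covered 1375 to 1725 bp of it in all 8 lists.

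The stretch chr3:127355151-127356100 (950 bp) was the only Neurog2 stretch without H3K4me2 at E17.5. H3K27ac there was 925 and 0 bp at E11.5, 950 and 950 bp at E14.5, 0 and 700 bp in frontal cortex, and 875 and 0 bp in occipital cortex at E17.5. The E14.5 lists were the highest for H3K27ac, and 1 list of each other tissue stood at 700 to 925 bp. Its H3K4me2 was 500 and 950 bp at E11.5, 0 and 450 bp at E14.5, and 0 bp in all 4 lists at E17.5. Just to its left, chr3:127352551-127355150 (2600 bp) was called for H3K27ac in both E14.5 lists and in no other.

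In the Neurog1 window, the stretch chr13:56352201-56354750 (2550 bp), near the centre, was called in all 16 lists. Its H3K27ac was 1900 and 1625 bp at E11.5, 2550 and 2275 bp at E14.5, 1675 and 500 bp in frontal cortex, and 1425 and 1225 bp in occipital cortex at E17.5. The E14.5 lists were the highest, and the longest E17.5 list passed the shorter E11.5 list. The sequence called in all 16 lists was chr13:56353526-56353950, 425 bp long.

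The stretch chr13:56359376-56362525 (3150 bp) showed the clearest difference between stages. Its H3K27ac was 2875 and 2625 bp at E11.5, 3150 and 2925 bp at E14.5, 975 and 0 bp in frontal cortex, and 0 and 1000 bp in occipital cortex at E17.5. All 4 lists at E17.5 were far below all 4 earlier lists, and 1374 bp of it (chr13:56360877-56362250) were called in every earlier H3K27ac list and in none at E17.5. H3K4me2 remained in all 8 lists, at 3150 and 3150 bp at E11.5, 2525 and 3150 bp at E14.5, and 1775 to 2825 bp at E17.5.

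The stretch chr13:56367976-56368700 (725 bp) ran the other way. Its H3K27ac was 0 and 0 bp at E11.5, 725 and 0 bp at E14.5, 725 and 725 bp in frontal cortex, and 725 and 550 bp in occipital cortex at E17.5. It was called in every E17.5 H3K27ac list and in 1 of 4 earlier ones. H3K4me2 was called there in 2 of 8 lists, both at E17.5.

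**Figure D4:**
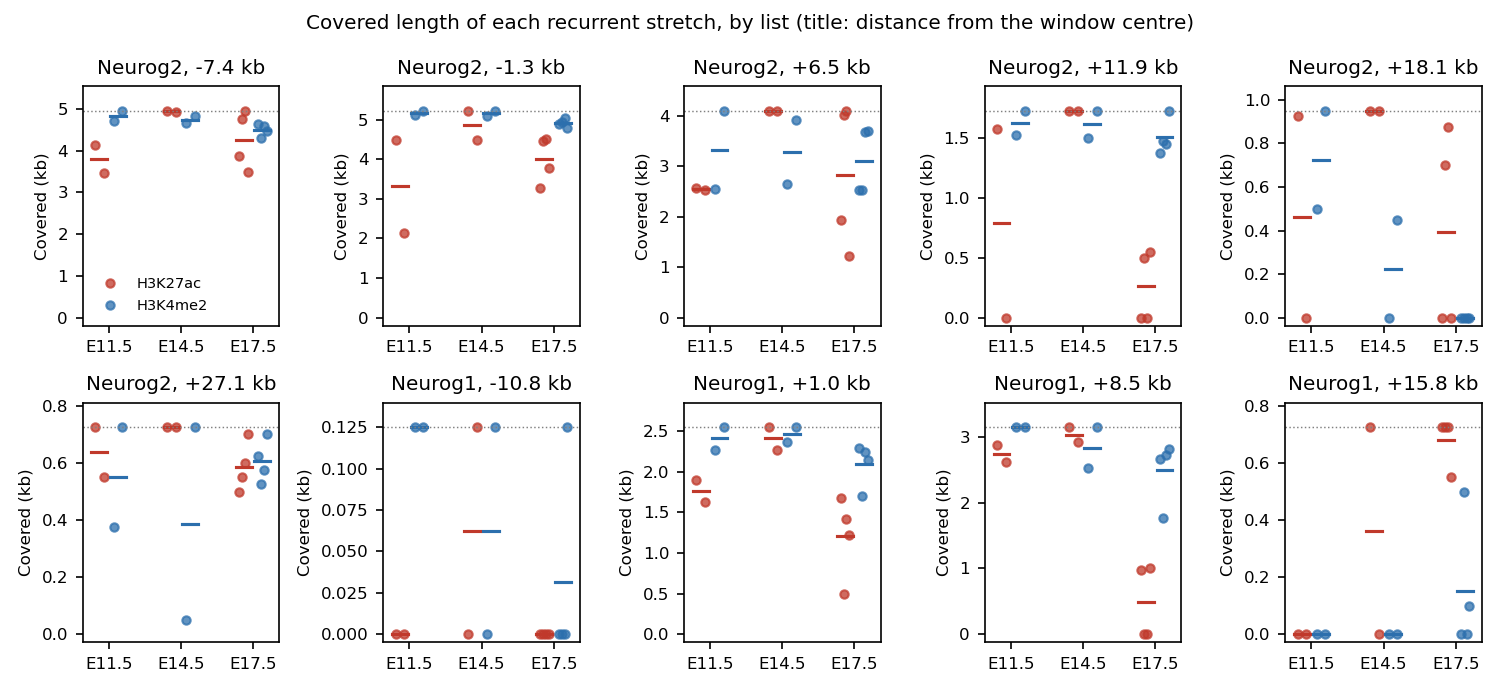
Covered length in kb of each recurrent stretch in the Neurog2 and Neurog1 windows by stage, with 1 point per list, a bar at the mean and a dotted line at the length of the stretch; titles give the distance of its centre from the centre of the window. The panel at +8.5 kb of Neurog1 shows H3K27ac at 0 to 1000 bp in the 4 lists at E17.5 against 2625 to 3150 bp in the 4 earlier lists.

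For a test across the genome, regions of the 8 lists of a mark were merged into loci, kept when called in at least 2 lists, and their covered length was tested with limma on log2(covered bp + 200), a scale that understates changes of short loci. Of 10 H3K27ac loci that touch the windows, 7 were tested (3 for Neurog2 and 4 for Neurog1) and 3 were called in 1 list only. Of 12 H3K4me2 loci, 10 were tested (5 for each gene) and 2 were called in 1 list only. Loci that cross a window edge count by their whole length, also outside the window.

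No H3K27ac locus of the windows passed the test between stages. At E14.5 against E11.5, limma called 0 of 7, where it called 7.48% of all 85290 loci. An unadjusted p below 0.05 was found at 1 of 7, against 17.7% of all loci. The median log2 difference of the 7 loci was 0.74, against 0.26 over all loci, and both E11.5 lists were the shortest H3K27ac lists. With lengths scaled to the list total, an unadjusted limma p below 0.05 was found at 0 of 7, against 18777 of all 85290 loci. At E17.5 against E14.5, limma called 0 of 7, where it called 1.13% of all loci. Of these 7, 5 had an unadjusted p below 0.05, all with negative differences, and the share of all loci below that p in either direction was 16.03%. These 5 depended on E14.5 replicate 1, which was the longer of the E14.5 lists at every one of the 7 loci.

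The H3K27ac locus chr3:127340576-127357100, which holds 3 of the 6 Neurog2 stretches, covered 5125 and 2525 bp at E11.5, 15350 and 12775 bp at E14.5, 1950 and 6050 bp in frontal cortex, and 5475 and 1775 bp in occipital cortex at E17.5. Both E14.5 lists were more than any other list. Its log2 difference was 1.90 ± 0.71 (SE) at E14.5 against E11.5 (limma adjusted p = 0.244) and -2.02 ± 0.62 at E17.5 against E14.5 (limma adjusted p = 0.195).

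The H3K27ac locus chr13:56358126-56363675, which holds the Neurog1 stretch with little or no H3K27ac at E17.5, covered 2900 and 2625 bp at E11.5, 5550 and 2950 bp at E14.5, 975 and 0 bp in frontal cortex, and 0 and 1000 bp in occipital cortex at E17.5. Its log2 difference at E17.5 against E14.5 was -3.13 ± 0.98 (SE; limma adjusted p = 0.204). It was the only one of 7 whose 4 values at E17.5 were all below the 4 earlier values, which held for 1.08% of all H3K27ac loci. Against the mean of E11.5 and E14.5, a comparison added after the values were seen, the difference was -2.86 ± 0.80 (limma adjusted p = 0.0674). In that comparison limma called 0 of 7 loci against 15.8% of all, 1.86% as lower. An unadjusted p below 0.05 was found at 1 of 7, against 32.5% of all loci.

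For H3K4me2, limma called 1 of 10 loci at E14.5 against E11.5, where it called 3.94% of all 63453 loci, and 2.08% of them as lower. The locus was chr13:56329501-56331200 at the left edge of the Neurog1 window, with 625 and 1700 bp at E11.5 and 0 bp in the 6 later lists. This locus passed the filter of at least 2 lists only through the 2 E11.5 lists. The filter thus fixed the direction of its differences, and its limma calls are no support for a loss. Its log2 difference was -2.65 ± 0.40 (SE; adjusted p = 0.0274), and because both E14.5 lists are at 0 bp that value depends on the 200 bp added. In the comparison added after the values were seen, E17.5 against the mean of E11.5 and E14.5, the same locus was the only one of 10 called (adjusted p = 0.0233), where limma called 24.8% of all loci, 2.49% as lower. That call was also lost with 1000 bp added (adjusted p = 0.0678), with loci called in any list (adjusted p = 0.0567) and with any 1 E14.5 or E17.5 list left out (adjusted p = 0.0589 to 0.116). The call at E14.5 was lost with 1000 bp added (adjusted p = 0.124), with loci called in any list (adjusted p = 0.0609) and with any 1 E14.5 or E17.5 list left out (adjusted p = 0.0678 to 0.0928), and without either E11.5 list the locus was no longer tested.

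At E17.5 against E14.5, limma called 0 of 10 H3K4me2 loci, where it called 13.6% of all. An unadjusted p below 0.05 was found at 0 of 10, against 26.3% of all loci. H3K4me2 values at E17.5 lay below all earlier values at 2 of 10 loci, against 0.326% of all loci. These were chr3:127327601-127339325 for Neurog2, with 9250 to 9625 bp in the 4 lists at E17.5 against 9900 to 11725 bp in the 4 earlier lists, and chr13:56350451-56354900 for Neurog1, with 1700 to 2300 bp at E17.5 against 2375 to 4450 bp earlier. Frontal against occipital cortex gave 0 of 7 H3K27ac calls, where limma called 2.31% of all loci, and 0 of 10 H3K4me2 calls, where it called 9.93%. No locus of the windows had an unadjusted p below 0.05, against 5.24% of all H3K27ac loci and 16.7% of all H3K4me2 loci.

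The calls depended on the scale. With lengths scaled to the list total, E17.5 against E14.5 gave 0 of 7 H3K27ac calls, where limma called 0% of all loci. Of these 7, 6 had an unadjusted p below 0.05, all lower, as against 15379 of all 85290 loci in either direction. For H3K4me2 the same comparison gave 1 of 10 calls, where limma called 13.5% of all loci, at chr13:56350451-56354900 of Neurog1 (log2 difference -0.95, adjusted p = 0.0261). With lengths scaled to the list total, E17.5 against the mean of E11.5 and E14.5, the comparison added after the values were seen, was called lower at 6 of 7 H3K27ac loci, where limma called 11.3% of all loci lower. Log2 differences of the 6 ran from -3.35 to -0.73 (limma adjusted p 0.0145 to 0.0403). The locus not called was chr13:56366826-56368925, which holds the Neurog1 stretch chr13:56367976-56368700, called in every E17.5 H3K27ac list. For H3K4me2, 5 of 10 loci were called lower, where limma called 5.18% of all loci lower, with log2 differences of -1.74 to -0.52 (limma adjusted p 0.00278 to 0.0444).

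The marks were compared within the 8 pairs of lists of the same tissue and replicate, which share an input per the series' design text. In the Neurog2 window H3K27ac was longer than H3K4me2 in 5 of 8 pairs, with a mean difference of 972 ± 8644 bp (SD, n = 8; exact sign-flip permutation p = 0.758, adjusted p = 0.758). In the Neurog1 window it was longer in 1 of 8 pairs, with a mean difference of -1812 ± 4329 bp (SD, n = 8; exact sign-flip permutation p = 0.281, adjusted p = 0.5625). That pair was E14.5 replicate 1, with 12425 bp of H3K27ac and 4900 bp of H3K4me2. Without that pair the mean difference was -3146 bp for Neurog1, with H3K27ac longer in 0 of 7 pairs (exact sign-flip permutation p = 0.0156, adjusted p = 0.03125). With any other pair left out, the Neurog1 adjusted p of that test was 0.547 or more. For Neurog2 the mean difference without E14.5 replicate 1 was -1347 bp, with the opposite sign from all pairs (exact sign-flip permutation adjusted p = 0.594).

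The share of H3K4me2 sequence that was also called for H3K27ac was highest at E14.5 for both genes. In the Neurog2 window it was 90.2 and 43.5% at E11.5, 100 and 90.3% at E14.5, 66.4 and 89.5% in frontal cortex, and 86.3 and 62.7% in occipital cortex at E17.5. In the Neurog1 window it was 57.7 and 36.2% at E11.5, 100 and 75.5% at E14.5, 55.9 and 25.2% in frontal cortex, and 28.4 and 32.4% in occipital cortex at E17.5. Both E14.5 values were above all others in each window, although in the Neurog2 window E14.5 replicate 2 exceeded E11.5 replicate 1 by little. The E11.5 and E17.5 values overlapped. By region, H3K27ac overlapped 37 of 41 H3K4me2 regions of the Neurog2 window (90.2%) and 17 of 26 of the Neurog1 window (65.4%) by at least 1 bp. Over the whole genome it overlapped 76.3% of all H3K4me2 regions. By pair of lists this was 81.8 and 55.4% at E11.5, 91.9 and 76.2% at E14.5, 81.8 and 87.3% in frontal cortex, and 80.0 and 68.9% in occipital cortex at E17.5. E14.5 replicate 1 was thus the highest pair over the genome as in both windows, and E11.5 replicate 2 the lowest as in the Neurog2 window.

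In both windows a smaller share of H3K27ac sequence than of H3K4me2 sequence was common to all lists. Of the Neurog2 sequence called for H3K27ac in any list, 20.7% was called in all 8 lists, against 63.8% for H3K4me2. In the Neurog1 window the shares were 3.10% for H3K27ac and 23.2% for H3K4me2. Sequence called in 1 list only made up 24.8% for H3K27ac and 7.22% for H3K4me2 in the Neurog2 window, and 42.5 and 33.7% in the Neurog1 window. These shares reflect the length of the calls as well as their place, and none is given for the rest of the genome. The overlap of lists as a Jaccard index (shared over joint length) averaged 0.576 within a tissue and 0.543 between tissues for Neurog2 H3K27ac, and 0.845 and 0.827 for Neurog2 H3K4me2. For Neurog1 it was 0.503 within a tissue and 0.327 between tissues for H3K27ac, and 0.644 and 0.576 for H3K4me2, and the ranges within and between tissues overlapped for each gene and mark.

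The H3K27ac loci elsewhere whose lengths over the 8 lists were most like the Neurog2 locus with the largest mean covered length, chr3:127325126-127339275, were chr10:95402226-95404675 (Pearson r = 0.984) and chr19:10598726-10600950 (r = 0.979), out of 43589 loci compared. These were chosen as the closest, share the same 8 lists and their lengths, and describe likeness only. The locus with the largest mean covered length that touches the Neurog1 window, chr13:56321051-56332100, lies mostly outside it, and its closest were chr11:87880451-87883825 (r = 0.990) and chr3:90279251-90281650 (r = 0.982).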

How the data were processed

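The authors deposited, for each ChIP sample, a list of called regions in 3 columns (chromosome, start, end); the files hold no count, signal or score. Tissue was crosslinked, sonicated and precipitated, per the labels' protocols. Per the submitters' processing notes, the tool was Bowtie 0.12.9, with hg19 and mm9 listed as builds and no role stated. The sources used here do not give the region caller or its threshold. In the 16 mouse lists, neighbouring regions lie at least 1025 bp apart. The 10 rhesus lists were not used here, and regions of the 13 input samples were not analysed here. Depth is unknown, so no counting interval was computed. Positions are 1-based.

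Covered bp per window and list, exact permutation tests and stretches were computed in Python 3.11.15 with numpy 2.4.6, pandas 2.3.3 and scipy 1.17.1, and loci were tested with limma 3.58.1 in R 4.3.3 (trend, Benjamini-Hochberg over all loci, threshold 0.05) in 1 fit per mark with a mean per tissue. In the covered lengths of windows and stretches, regions that cross a window edge (20 of 130) count only by their part inside. In the loci tested with limma they count by their whole length. The stage and sign-flip permutation tests and the limma fit were tested on simulated data. Every locus that touches a window is named or counted; like loci are the 2 with the highest r among loci of at least 2000 bp. Marks of a tissue and replicate were paired through their shared input. Alternatives were scaling to list total, a log2 scale, windows 10 kb narrower or wider per side, an equal number of widest regions per list, 4 tissues in place of 3 stages, 1000 bp added before the log, a replicate block, loci in any list, merging up to 1000 bp apart, an overlap of 50%, and leaving out each list. The members, lists and tests were chosen with earlier results of these data known. Promoters and gene neighbours come from RefSeq on GRCm38.p6, matched by symbol for both genes. Because that is another build than mm9, no region was assigned to a gene part, and other genes of the Notch and Delta pathway could not be placed and are not reported.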

Additional observations from a re-analysis of the deposited data

Results flagged for a closer look

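In the Neurog1 window, H3K27ac and H3K4me2 differed in opposite directions at E14.5 against E11.5. H3K27ac was 4387.5 bp longer on average at E14.5, with both E14.5 lists above both E11.5 lists, and H3K4me2 differed by -3812.5 bp, with both E14.5 lists below both E11.5 lists. Scaled to the list total, H3K27ac was 69.7 ± 23.0 bp per Mb of list at E14.5 and 63.7 ± 5.13 bp at E11.5 (SD, n = 2 each) with E14.5 lists on both sides of the E11.5 lists, so on that scale the stages of H3K27ac were not separated. The difference between the marks was not tested, and E14.5 H3K27ac replicate 1, the list with the widest regions in both windows, had 12425 bp.

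Among 28 sets of 4 values at E17.5, 3 had a value far from the other 3. Chance flags about 1 set in 20 where values can vary freely, which does not hold for 2 of the 3, whose other values tie at 0 bp or at the full length of the stretch. At the Neurog1 stretch chr13:56359376-56362525, H3K4me2 was 1775 bp in frontal cortex replicate 2, against 2675 bp in frontal cortex replicate 1 and 2725 and 2825 bp in occipital cortex. At the stretch chr13:56367976-56368700, H3K27ac was 550 bp in occipital cortex replicate 2 and 725 bp in the other 3 lists. At the stretch chr13:56341651-56341775, H3K4me2 was 125 bp in occipital cortex replicate 2 and 0 bp in the other 3 lists.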

How the results depend on the processing

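The lists carry no depth or score and each tissue has 2 of them, which limits all tests. Of 84 results recomputed under another setting, 61 kept their direction and side of the threshold or stayed within 1.5 times, as did 82 of 112 with a list left out. With lengths scaled to the list total, the stage tests passed for Neurog2 H3K27ac (adjusted p = 0.0143), Neurog1 H3K27ac (0.0476) and Neurog1 H3K4me2 (0.0143, all exact permutation), and H3K27ac minus H3K4me2 became -26.4 bp per Mb of list for Neurog2, against the sign of the unscaled value, and -27.5 bp per Mb for Neurog1 (exact permutation adjusted p = 0.03125). With windows 10 kb narrower per side, the Neurog1 H3K27ac stage test passed (exact permutation adjusted p = 0.0286) and the Neurog2 mark difference turned to -62.5 bp. With windows 10 kb wider per side, the H3K27ac stage tests had an exact permutation adjusted p of 0.314 for Neurog1 and 0.157 for Neurog2. The Neurog1 mark difference turned to 709.25 bp with these windows. For both genes, the unscaled H3K27ac stage test had an exact permutation adjusted p of 0.257 with 4 tissues and 0.143 on the log2 scale. With a pair left out, the mark difference ranged from -1346.57 to 2721.43 bp for Neurog2 and from -3146.29 to -999.857 bp for Neurog1. The cause of these changes was not tested.

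Counts of loci called by limma over the whole genome moved more. For H3K27ac at E14.5 against E11.5, 6380 were called, 2971 with 1000 bp added, and 933 to 6564 with a list left out. For H3K27ac at E17.5 against E14.5, 968 were called, 0 with 1000 bp added, with the replicate block or with scaled lengths (12787 to 15379 at an unadjusted p below 0.05), 72 with loci in any list, 2857 with an equal number of widest regions, and 0 to 5371 with a list left out. For H3K27ac in frontal against occipital cortex, 1967 were called, 748 with an equal number of widest regions, and 0 with 1000 bp added, the replicate block, loci in any list or scaled lengths (4179 to 4982 at an unadjusted p below 0.05) and with any list left out (range 0 to 0).

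For H3K4me2 at E14.5 against E11.5, 2502 were called, 1078 with 1000 bp added, and 3 to 3357 with a list left out. At E17.5 against E14.5, 8622 were called, 3011 with loci in any list, 3736 with an equal number of widest regions, and 1 to 10652 with a list left out. In frontal against occipital cortex, 6299 were called, 2812 with an equal number of widest regions, and 0 to 7158 with a list left out. The main tests did not pair tissues by replicate number. Same-numbered deviations from the tissue mean correlated at -0.204 to 0.0986 for H3K27ac and -0.0432 to 0.242 for H3K4me2 over 6 pairs of tissues. The correlation was above 0.1 in 0 of 6 pairs for H3K27ac and in 2 of 6 for H3K4me2. With the replicate number as a block, the H3K4me2 call at chr13:56329501-56331200 had an adjusted p of 0.0557. Without the pairing of marks, exact permutation p was 0.757 for Neurog2 and 0.253 for Neurog1.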

Other observations

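At the left edge of the Neurog1 window, an H3K27ac locus ran from outside the window into it (chr13:56321051-56332100). It covered 6175 and 3575 bp at E11.5, 10800 and 5200 bp at E14.5, 4250 and 4475 bp in frontal cortex, and 3950 and 3350 bp in occipital cortex at E17.5. It was called in all 8 H3K27ac lists, of which 3 reach into the window.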
